A study of Mus musculus with 26 samples.

Results

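The comparison described here asked what deletion of Spred1 in blood-forming cells did to the transcriptome of leukaemic stem and progenitor cells in mice with chronic myeloid leukaemia (CML). It took the 5 libraries labelled as haematopoietic stem cell (HSC) Spred1 knockout and the 5 labelled as their wild-type control, 10 of the 26 libraries of the series, and all genes with enough counts in them (13379 of 24091 in the deposited table). The groups were chosen by label alone and are called HSC KO and HSC wt. All mice were C57BL/6 and carried SCLtTA/BCR-ABL, in which the tetracycline transactivator is driven by a stem cell leukaemia gene element and switches on the BCR-ABL oncogene. HSC KO mice were Spred1 HSCΔ/Δ and HSC wt mice Spred1 HSCwt/wt. Both groups received 7 intraperitoneal doses of 250 µg poly(I:C), an interferon inducer, given 2 days apart to switch on Mx1-cre, so the control shares the interferon stimulus. Mx1-cre answers to interferon and is not restricted to stem cells. RNA came from lineage-negative, Sca-1-positive, c-Kit-positive (LSK) cells sorted from bone marrow, 1 library per mouse. The labels call these cells leukaemic stem cells, although an LSK sort also holds multipotent progenitors. Other libraries came from mice labelled as global Spred1 KO, Spred1 wt and endothelial Spred1 KO. They entered the fit to estimate the spread between mice.

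SPRED1 is a membrane-bound inhibitor of RAS signalling that brings the RAS GTPase-activating protein neurofibromin to the plasma membrane. Active RAS passes its signal through RAF, MEK and ERK kinases, and ERK induces transcription of its own inhibitors (DUSP phosphatases, Sprouty and SPRED proteins), of ETV transcription factors and of cyclin D1. BCR-ABL feeds into this pathway through adaptor proteins, which makes loss of a RAS brake a question of interest in CML.

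Levels are CPM, the read count of a gene relative to the total count of its library, scaled between libraries by the trimmed mean of M-values (TMM), which assumes that most genes do not differ. Differences are log2 values of HSC KO minus HSC wt with their standard error (SE). A gene passed where its p-value, adjusted by Benjamini-Hochberg over all genes tested, was under 0.05 in edgeR's quasi-likelihood test. The 10 libraries held between 15824736 and 26714325 counts. Transcripts of Xist and of Y-linked genes showed that HSC KO 1, 4 and 5 came from females and HSC KO 2 and 3 from males, while HSC wt 4 and 5 came from females and HSC wt 1, 2 and 3 from males. The sort markers were present in every library. Kit ranged from 677 to 1249 CPM in HSC KO and from 813 to 1138 CPM in HSC wt, Cd34 from 745 to 824 and from 657 to 939 CPM, and Ly6a, which encodes Sca-1, from 43.5 to 82.3 and from 41.0 to 83.6 CPM.

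Libraries stood apart inside both groups. HSC KO 1 lay alone at one end of the first principal component, which held 37% of the variance between the 10 libraries. It held the lowest level of the 10 libraries in 9 of 12 mast cell and basophil markers (0.0583 CPM of the tryptase Tpsab1 and 221 CPM of the carboxypeptidase Cpa3, against 32.0 to 194 and 797 to 3982 CPM in the other HSC KO libraries). Another marker of the list, the basophil protease Prss34, was highest there, at 707 CPM against 40.7 to 582 CPM in the other 9. It also held the most plasma cell and red cell transcripts, with 825 CPM of the immunoglobulin joining chain Jchain against at most 118 in any other of the 10, and 194 CPM of the globin gene Hbb-bs against at most 3.91. HSC wt 1 and 2, both male, stood apart on the second component (22%). They held the highest summed level of stem cell genes, 2214 and 2048 CPM against 1329 to 1675 in the other 8, and the least of the myeloid granule gene Mpo, 2819 and 3026 CPM against 4561 to 7186. Results that rest on these libraries are given with and without them. In RNA from sorted pools, fewer cells of a type and less RNA per cell cannot be told apart.

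**Figure D1:**
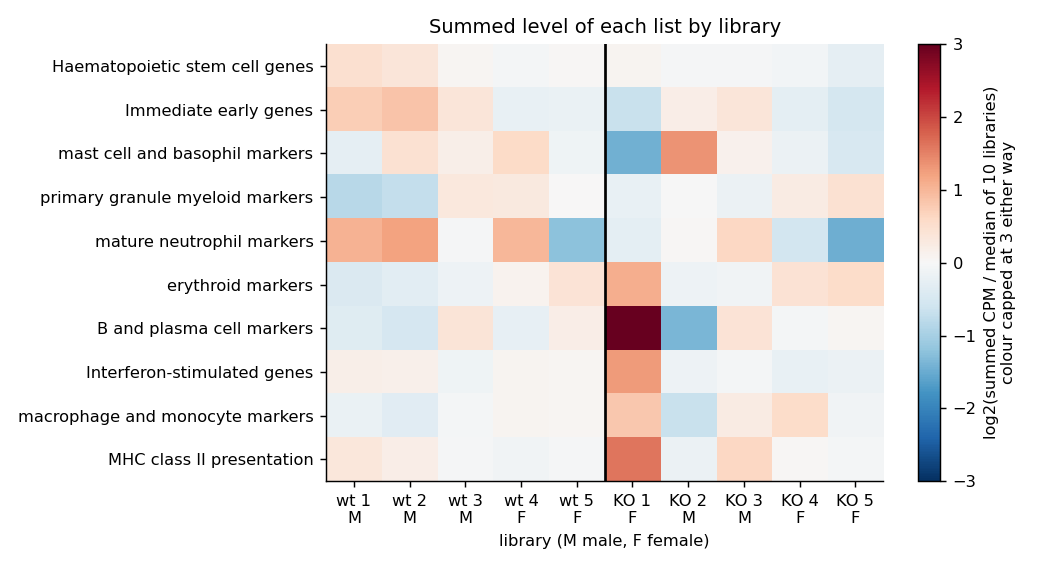
Summed CPM of 10 gene lists in each of the 10 libraries, as log2 of the ratio to the median library; colour runs from blue (below) to red (above), columns are libraries with the sex read from Xist and Y-linked genes, and the black line divides HSC wt from HSC KO. HSC KO 1 stands out in B and plasma cell, interferon and MHC class II genes, and HSC wt 1 and 2 in stem cell and immediate early genes.

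Spred1 itself was reduced and not absent. It measured 28.8, 47.4, 36.7, 32.8 and 31.3 CPM in HSC KO 1 to 5 and 96.9, 109, 106, 107 and 101 CPM in HSC wt 1 to 5. Every knockout library lay far below every control. Its log2 difference was -1.55 (SE 0.15, adjusted p = 4.14e-06, edgeR), with means of 35.4 ± 7.3 and 104 ± 4.9 CPM (SD, n = 5 each) and 34.1% of the control level. The deposited table gives 1 count per gene, so reads from the deleted part of Spred1 (mm10 chromosome 2, 117121071 to 117182277, plus strand) were not analysed separately. In the global Spred1 knockout the gene also kept part of its counts. Spred1 measured 32.7 ± 7.4 CPM there and 114 ± 21 CPM in Spred1 wt (mean and SD), a log2 difference of -1.81. Whether the remaining counts in HSC KO came from undeleted cells or from a transcript that lacks the deleted part was not tested.

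The gene next to Spred1 was higher. Mir674, a microRNA gene that starts 2850 bases past the annotated end of Spred1 on the same strand (chromosome 2, 117185127 to 117185226), had 9, 11, 4, 10 and 8 reads in HSC KO 1 to 5 and 3, 1, 2, 1 and 1 reads in HSC wt 1 to 5. No library of one group reached the other, but the counts are few. The log2 difference was 2.62 (SE 0.53), and the gene missed the threshold (adjusted p = 0.159, edgeR). Reads over so short a gene in a library of long RNA need not come from the mature microRNA. Its mature products are shown because they are what such a locus is annotated to make, with the seed (bases 2 to 8) in capitals (RefSeq, GRCm38.p6, 5′ to 3′).
mmu-miR-674-5p: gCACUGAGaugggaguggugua
mmu-miR-674-3p: cACAGCUCccaucucagaacaa
Among the other 250 genes tested within 20 Mb of Spred1, Mir674 was the single one whose groups did not overlap (0.4%, against 0.65% of all genes tested) and 0 passed.

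Across the transcriptome the groups differed little. Of 13379 genes, 0 were higher and 3 lower past the threshold (0.0224%), among them Spred1 and DQ267101. At an unadjusted p under 0.05 there were 123 higher (0.919%) and 166 lower genes (1.24%). That is 289 genes (2.16%), fewer than the 669 that a threshold of this size gives over genes that do not differ. Of all genes 56.9% had a difference above 0, with a median of 0.02, the background for the gene lists. The median size of a log2 difference was 0.078 against a median SE of 0.12. The 95% interval of the difference lay within -1 to 1 for 86.1% of genes, so a difference of over 2-fold was not compatible with the interval of most genes. DESeq2 on the 10 libraries alone called 9 genes (0.0505% of 17806), of which the cyclin gene Ccnd1, the adaptor gene Grap and the integrin gene Itgal were higher. Its lower genes included Spred1, Meg3, DQ267101, Arhgef28 and C4b. DESeq2 on all 26 libraries called 0 higher and 5 lower genes, and Ccnd1 and Grap were no longer called (adjusted p = 0.343 and 0.163).

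A second description used single libraries and was not a test, since among this many genes some lie apart where the groups do not differ. In 59 genes (0.441%) all 5 HSC KO libraries lay above all 5 HSC wt libraries, and in 28 genes (0.209%) all lay below. On total counts, without TMM, the split was 23 higher and 38 lower, so the excess of higher genes rests on the scaling. Without HSC KO 1 these counts were 320 and 230, without HSC wt 1 and 2 they were 189 and 164, and without all 3 of these libraries 530 and 633, where fewer libraries have to be apart. The higher genes were mostly abundant with small differences (median log2 difference 0.14), and the lower ones fewer and with larger differences (median -0.58).

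**Figure D2:**
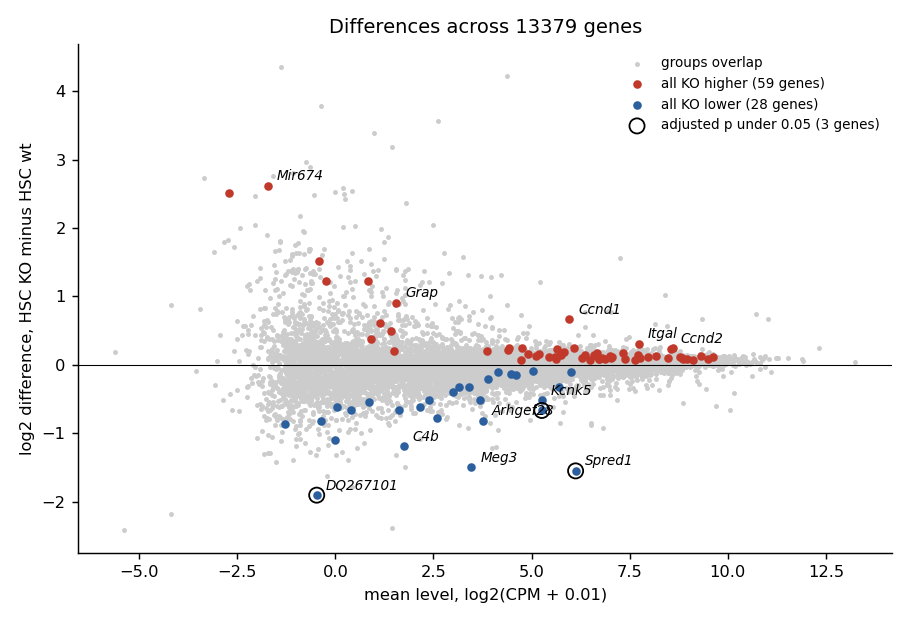
Log2 difference of HSC KO minus HSC wt against mean level for each of 13379 genes; red and blue points are the 59 and 28 genes whose groups did not overlap, and black circles are the 3 genes past the threshold. Blue points with a large difference, such as Spred1 and Meg3, lie at low and middle levels, and most red points lie within 0.3 of 0 at high levels.

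Among the inhibitors of the pathway, loss of Spred1 was not met by a higher level of the other members past the threshold. Spred2, the closest relative expressed here, measured 46.8, 46.7, 46.9, 55.2 and 46.6 CPM in HSC KO and 42.9, 49.1, 43.1, 43.8 and 42.6 CPM in HSC wt. Its groups overlapped through HSC wt 2, and the log2 difference was 0.13 (SE 0.09, adjusted p = 0.999, edgeR). Per kilobase of transcript, HSC wt held 14.7 CPM of Spred1 and 11.8 CPM of Spred2, while HSC KO held 5.00 and 12.9 CPM. The level of Spred1 thus lay above that of Spred2 in the control and below it in the knockout. Spry4, a Sprouty inhibitor induced by ERK, had a log2 difference of 0.49 (SE 0.30), with overlapping groups, and Spry2 one of 0.02. The list of Spred and Sprouty inhibitors, 6 tested genes with Spred1 included, had a median of -0.08. It was 0.21 in females alone and -0.29 in males alone. Among females 4 of the 6, Spred2 and Spry4 among them, lay above the controls and 1 below, against 9.34% and 9.39% of all genes. Among males 0 lay above and 2 below, against 17% and 11.7% of all genes.

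The core of the pathway showed small differences. Of 18 genes for RAS, RAF, MEK and ERK proteins, 11 were higher and 7 lower, 0 passed, and the median log2 difference was 0.02, the same as over all genes. Nras measured 152 to 167 CPM in HSC KO and 153 to 175 CPM in HSC wt. Of the 18 members, 1 had groups that did not overlap, as did 0.65% of all genes tested. Mras, a RAS-related GTPase that acts with SHOC2 on RAF, measured 5.66, 3.36, 4.26, 3.72 and 4.51 CPM in HSC KO and 6.14, 5.70, 6.64, 6.40 and 6.03 CPM in HSC wt. All 5 knockout libraries lay below all controls, with a log2 difference of -0.52 (SE 0.20), and the gene missed the threshold (unadjusted p = 0.0166, adjusted p = 0.999, edgeR).

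Adaptors and exchange factors upstream of RAS were also near control level, with 10 of 18 higher, 0 passed and a median of 0.03. Rasgrp2, an exchange factor for RAP and RAS GTPases, was above the controls of its own sex in all 5 knockout libraries (169, 153, 150, 155 and 159 against 125, 125, 146, 149 and 151 CPM), and its log2 difference was 0.17 (SE 0.08, adjusted p = 0.999, edgeR). Grap, which encodes an adaptor of the GRB2 family, was outside the list and was chosen after its values were seen. It measured 4.49, 2.90, 3.52, 3.46 and 4.57 CPM in HSC KO and 1.7, 1.80, 2.13, 2.33 and 2.15 CPM in HSC wt. The groups did not overlap. The log2 difference was 0.90 (SE 0.21), with adjusted p = 0.525 in edgeR and 0.0243 in DESeq2 on the 10 libraries.

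Most members of a list of genes that ERK is known to induce had a difference above 0, and 0 passed. Immediate early genes such as Fos and Egr1 formed a separate list, where 19 of 20 were lower (median -0.37). The summed level of the ERK output list overlapped between the groups, at 394 to 1527 CPM in HSC KO and 724 to 1163 CPM in HSC wt. Of 16 measured members of the list of ERK outputs, 13 were higher and the median log2 difference was 0.26 against 0.02 over all genes. Over 24 alternatives that median stayed between 0.11 and 0.36, and it was 0.26 without HSC KO 1 and HSC wt 1 and 2. Etv4, an ETS transcription factor, measured 0.408, 3.69, 1.12, 3.85 and 2.62 CPM in HSC KO and 0.850, 0.719, 1.53, 0.582 and 0.377 CPM in HSC wt. HSC KO 2, 4 and 5 lay above every control, HSC KO 3 lay within their range and HSC KO 1 below all but 1 of them. The log2 difference was 1.51 (SE 0.69, adjusted p = 0.999, edgeR). Its relative Etv5 measured 31.7, 45.3, 41.3, 45.1 and 39.4 CPM in HSC KO and 30.8, 41.0, 38.9, 29.1 and 23.4 CPM in HSC wt. It was above the controls in both sexes taken apart, with overlap between the sexes and a log2 difference of 0.31 (SE 0.18). The ERK phosphatase gene Dusp6 overlapped between the groups, with a log2 difference of 0.17 (SE 0.16). Dusp7, another phosphatase gene of this family that was not in the list, had groups that did not overlap, 27.8 to 32.2 CPM against 22.7 to 26.9 CPM (log2 difference 0.24, SE 0.10, adjusted p = 0.999, edgeR).

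Cyclin D1 was the clearest member of the list. Ccnd1 (chromosome 7, 144929931 to 144939925, minus strand) measured 71.6, 77.8, 86.1, 76.9 and 67.8 CPM in HSC KO 1 to 5 and 46.8, 54.1, 49.7, 36.1 and 52.7 CPM in HSC wt 1 to 5. Every knockout library lay above every control, from which separation within each sex follows. The log2 difference was 0.67 (SE 0.18), or 1.59-fold, with adjusted p = 0.999 in edgeR and 4.13e-05 in DESeq2 on the 10 libraries. It ranged from 0.58 to 0.73 over 24 alternatives.

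The other D cyclins showed less. Ccnd2 measured 471, 406, 376, 406 and 382 CPM in HSC KO and 353, 361, 364, 327 and 333 CPM in HSC wt, again with no overlap. Its log2 difference was 0.23 (SE 0.07, adjusted p = 0.999, edgeR), and HSC KO 1 held the highest level. Ccnd3 differed by 0.00 and its groups overlapped. Per kilobase, Ccnd2 was the most abundant of the D cyclins in HSC wt, at 56.7 CPM, against 31.1 for Ccnd3 and 10.4 for Ccnd1. In HSC KO the same order held, at 66.6, 31.2 and 16.5 CPM. Of the 14 genes in the list of D cyclins, their kinases and inhibitors, 7 were higher and 7 lower, and the median was 0.00. Cdkn1c, an imprinted gene for the cell cycle inhibitor p57, measured 1.40, 1.45, 1.81, 2.25 and 1.34 CPM in HSC KO and 4.87, 3.0, 2.46, 2.01 and 1.85 CPM in HSC wt. It was below the controls among males and overlapped among females, where the female HSC KO 4 held 2.25 CPM against 2.01 in HSC wt 4 (log2 difference -0.78, SE 0.33).

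All 16 S phase genes and all 20 G2 and M phase genes had a difference above 0, with medians of 0.09 in each list, and 0 passed. These differences were seen among males, where HSC wt 1 and 2 are 2 of the 3 controls. Sex and this pair of libraries cannot be told apart here. In 10 of the 16 S phase genes the male knockout libraries lay above the male controls, and in females this held for 0 of 16, against 17% and 9.34% of all genes tested. For the G2 and M phase genes these counts were 5 and 0 of 20. Another 2 of the 20 were below the controls among females, against 9.39% of all genes. Without HSC wt 1 and 2 the medians were 0.01 and -0.02. The 21 nuclear genes of oxidative phosphorylation were alike, all higher with a median of 0.14, apart in 17 of 21 genes among males and in 0 among females, with a median of 0.04 without HSC wt 1 and 2.

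**Figure D3:**
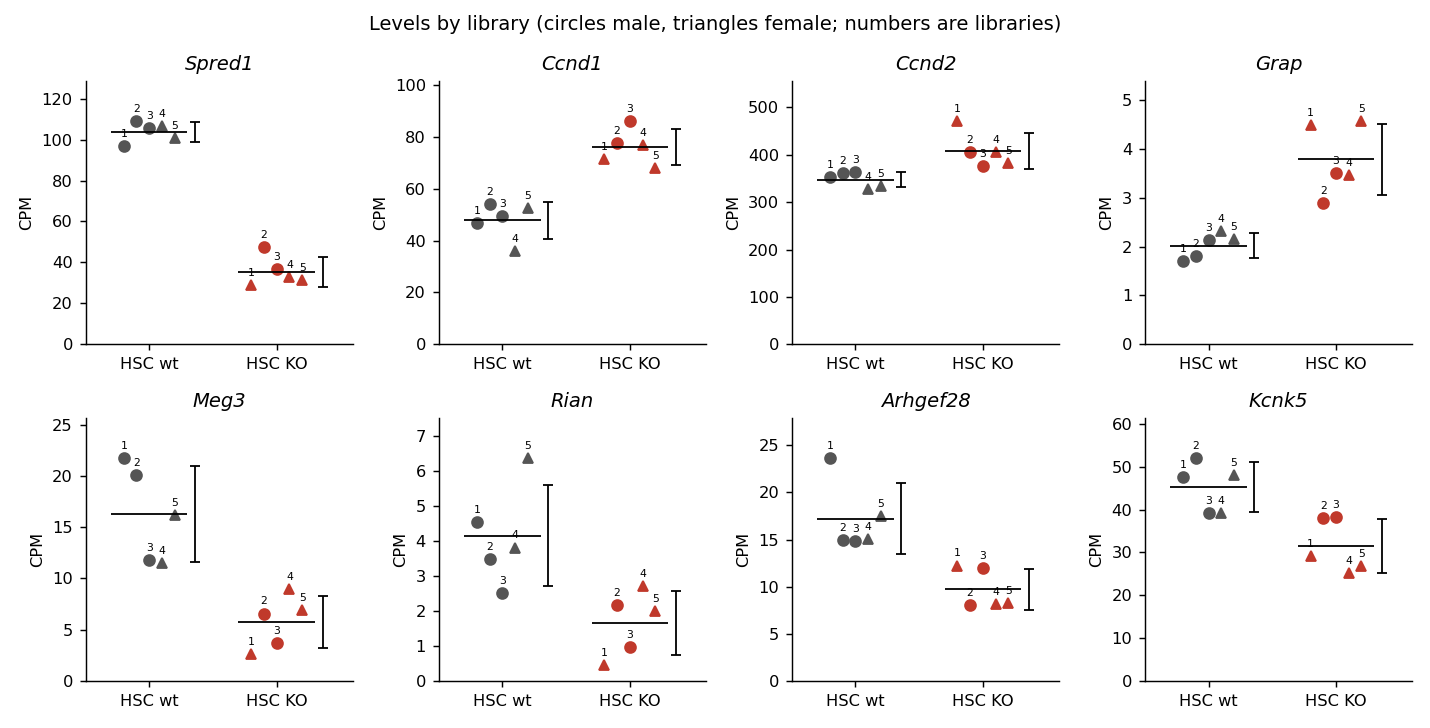
CPM of 8 genes in each library of HSC wt (grey) and HSC KO (red), with circles for males, triangles for females, the library number above each point, a line at the group mean and a bar of 1 SD either way beside it. The groups are apart in all panels but that of Rian, where HSC KO 4 at 2.69 CPM lies above HSC wt 3 at 2.51 CPM.

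Of the noncoding genes of the imprinted Dlk1-Dio3 cluster on chromosome 12, Meg3, Rian and DQ267101 were lower in the knockout, and DQ267101 passed. This cluster expresses Meg3, Rian and many small RNAs from the maternal copy and Dlk1, Rtl1 and Dio3 from the paternal copy, and Meg3 is known from mouse work as a mark of long-term stem cells. Meg3 (109540996 to 109571729, plus strand) measured 2.62, 6.58, 3.73, 8.98 and 6.91 CPM in HSC KO 1 to 5 and 21.8, 20.1, 11.8, 11.5 and 16.2 CPM in HSC wt 1 to 5. The highest knockout library lay below the lowest control. Its log2 difference was -1.50 (SE 0.37), with adjusted p = 0.801 in edgeR and 0.00264 in DESeq2 on the 10 libraries. HSC KO 1 and HSC wt 1 and 2, the libraries that stand apart, held the extreme values, and the difference was -1.02 without them.

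Rian, the next noncoding gene, measured 0.466, 2.17, 0.959, 2.69 and 2.01 CPM in HSC KO and 4.53, 3.48, 2.51, 3.81 and 6.36 CPM in HSC wt. Its groups were apart within each sex and overlapped between the sexes (log2 difference -1.33, SE 0.39, adjusted p = 0.999, edgeR). DQ267101 (109649617 to 109651495, plus strand) had 4, 5, 6, 5 and 5 reads in HSC KO 1 to 5 and 36, 12, 22, 19 and 31 reads in HSC wt 1 to 5, and fell by 1.91 on the log2 scale (SE 0.30, adjusted p = 0.00584, edgeR). Every knockout library held at most 6 reads and every control at least 12. This transcript lies wholly inside the annotated interval of Rian on the same strand, so its reads and those of Rian need not be separate measurements. Its call was lost with the 10 libraries alone (adjusted p = 0.137), within either sex, and without the 3 libraries that stand apart (adjusted p = 0.150), while its log2 difference stayed between -2.03 and -1.69 over 24 alternatives.

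Dlk1, the paternal gene, overlapped between the groups (log2 difference -0.69, SE 0.52). HSC wt 1 held 3.97 CPM of Dlk1, against 1.48 to 1.80 CPM in the other controls. The log2 difference of Dlk1 ran from -0.99 to -0.03 over 24 alternatives. Over the 5 libraries of a group, Meg3 had 479 reads in HSC KO and 1698 in HSC wt, Rian 137 and 449, Dlk1 108 and 221, Mirg 10 and 12, and Rtl1 1 and 1. The 57 microRNA genes of the interval held 7 and 6 reads in all, too few to compare, and Dio3 had 0 in both. Of the 71 genes of the interval 4 passed the filter on low counts, and all 4 were lower (median -1.41, with 3 of 4 apart in both sexes). Of all genes tested, 0.59% were lower in this way in both sexes and 0.994% higher. DQ267101 had under the filter's minimum of 10 reads in every HSC KO library and passed through other groups, HSC wt among them. The count of lower members is therefore no support beyond the single genes.

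A start of Meg3, 1 of 2 listed for the gene, is shown beside that of Rian because it carries a motif that Rian lacks. The windows run from 250 bases before to 50 after the annotated start (RefSeq, GRCm38.p6, 5′ to 3′). They are chr12:109540746-109541045 and chr12:109603695-109603994, plus strand. Capitals mark the letters TGACGTCA, the cyclic AMP response element, and TATAAA, each searched on both strands.
Meg3: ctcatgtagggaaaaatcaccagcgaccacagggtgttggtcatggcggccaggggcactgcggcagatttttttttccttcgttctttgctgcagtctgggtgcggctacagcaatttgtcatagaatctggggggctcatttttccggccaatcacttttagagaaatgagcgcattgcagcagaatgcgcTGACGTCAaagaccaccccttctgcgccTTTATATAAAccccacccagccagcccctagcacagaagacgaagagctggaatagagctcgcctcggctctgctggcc
Rian: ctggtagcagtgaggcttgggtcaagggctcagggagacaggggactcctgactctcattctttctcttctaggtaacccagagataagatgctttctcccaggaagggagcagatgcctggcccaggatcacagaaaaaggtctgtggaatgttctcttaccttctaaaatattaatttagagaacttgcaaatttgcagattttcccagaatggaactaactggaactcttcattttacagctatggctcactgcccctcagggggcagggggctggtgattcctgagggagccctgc
TGACGTCA stood in 1.79% and TATAAA in 13.6% of 32851 windows of this length. The Meg3 window held 1 of the first and 2 overlapping matches of the second, and 13 CpG sites against a median of 7. The Rian window held neither motif and 0 CpG sites.

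Genes of long-term stem cells were lower on balance, and this depended on which libraries were compared. HSC wt 1 and 2 are 2 of the 3 male controls, so a dependence on sex and one on this pair cannot be told apart. Of 19 genes, 18 were lower, 0 passed, and the median was -0.28. Esam, an adhesion molecule of stem cells, measured 14.6, 17.3, 14.7, 15.1 and 10.6 CPM in HSC KO and 29.8, 26.6, 18.1, 13.3 and 19.2 CPM in HSC wt. HSC wt 1 and 2 were the highest of the 10, and HSC wt 4 lay among the knockout libraries (log2 difference -0.56, SE 0.20, adjusted p = 0.999, edgeR). Procr, which encodes the endothelial protein C receptor used to sort stem cells, showed the same order, with 26.3 and 22.4 CPM in HSC wt 1 and 2 and 8.08 to 15 CPM in the other 8 libraries. Fgd5 and Prdm16, further stem cell genes, had log2 differences of -0.71 and -0.57.

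Among males 12 of the 19 genes were below the controls in both knockout libraries, and among females 0 of 19, against 11.7% and 9.39% of all genes. The list's median was -0.68 in males alone, -0.01 in females alone, -0.04 without HSC wt 1 and 2 and -0.23 without HSC KO 1 as well. The HOX and MEIS list, which holds self-renewal transcription factors, had 9 of 9 lower with a median of -0.20 and of -0.08 without these controls. Meis1 measured 253 and 228 CPM in HSC wt 1 and 2 and 135 to 198 CPM in the other 8. Hoxa9 differed by -0.01.

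Immediate early genes were lower in 19 of 20, with a median of -0.37, and 0 passed. Fos, the AP-1 subunit, measured 379, 916, 1011, 554 and 468 CPM in HSC KO and 1354, 1425, 1077, 587 and 603 CPM in HSC wt. Male libraries held more Fos than female ones in both groups, and within each sex the knockout lay below the control (log2 difference -0.60, SE 0.36, adjusted p = 0.999, edgeR). Egr1 was below the controls among females (198, 335 and 300 against 380 and 384 CPM) and overlapped among males. The median over the list was 0.02 without HSC KO 1 and HSC wt 1 and 2. These genes answer to cell handling within minutes, and handling times were not given in the sources used here.

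Survival genes differed little. In the BCL2 family 13 of 15 genes were higher, 0 passed, and the median was 0.14. Bid, which couples death receptors to mitochondria, measured 70.8 to 78.8 CPM in HSC KO and 51.7 to 68.9 CPM in HSC wt, without overlap (log2 difference 0.24, SE 0.12, adjusted p = 0.999, edgeR). Mcl1 had a log2 difference of -0.20 and Bcl2l11, which encodes the ERK-regulated killer protein BIM, one of 0.14, both with overlap. Of 12 STAT5 feedback and target genes 9 were lower, with a median of -0.14. Pim2, a kinase gene of this list, had a log2 difference of -0.41 (SE 0.19), and the list's median was 0.06 without HSC KO 1.

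**Figure D4:**
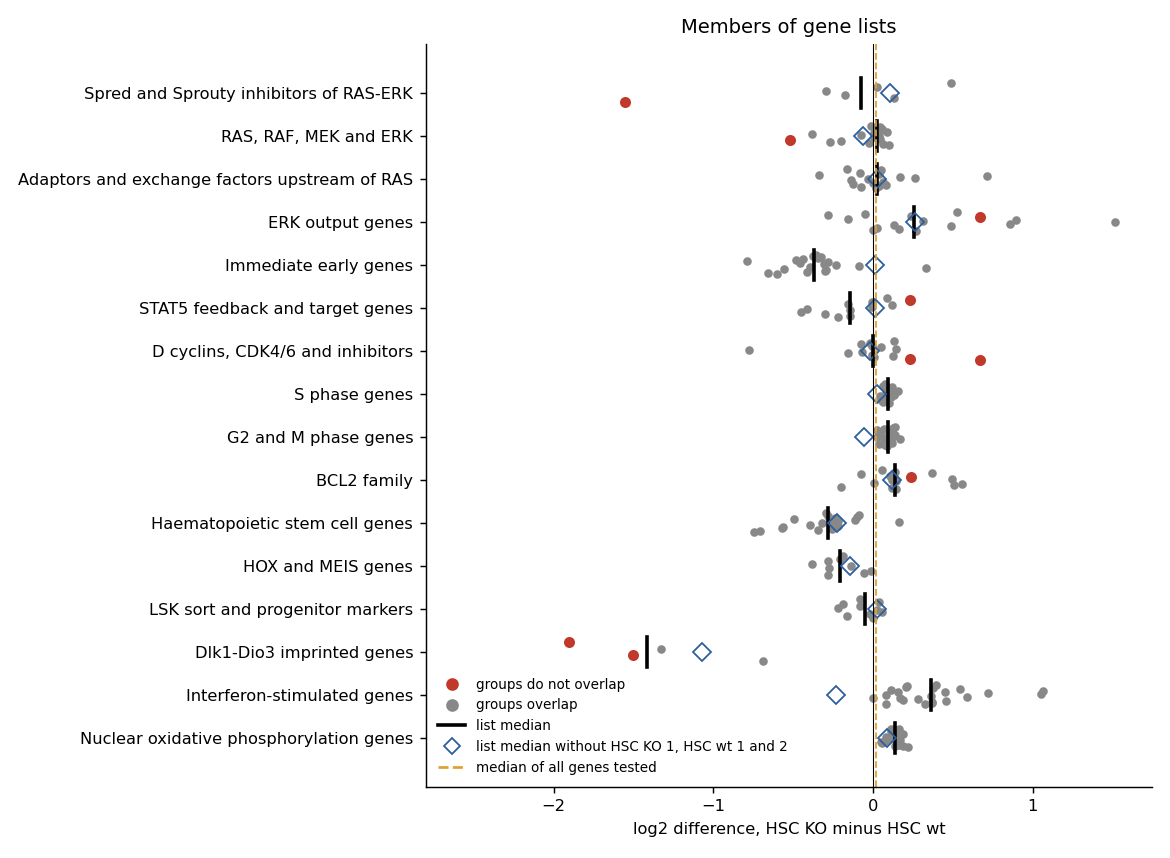
Log2 difference of HSC KO minus HSC wt for each tested member of 16 gene lists, with red points for members whose groups do not overlap, a black bar at the list's median, a blue diamond at its median without HSC KO 1 and HSC wt 1 and 2, and a dashed line at the median of all genes. ERK output genes keep their median at 0.26 without these libraries, and that of interferon-stimulated genes moves from 0.36 to -0.23.

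Interferon-stimulated genes, which poly(I:C) induces, were high in 1 knockout library. All 23 had a difference above 0 (median 0.36), and the median was -0.35 without HSC KO 1. Mx1, the gene whose promoter drives the Cre, measured 14.5 CPM in HSC KO 1, 0.639 to 2.44 CPM in the other 4 knockout libraries and 1.58 to 2.28 CPM in HSC wt. The MHC class II invariant chain Cd74 measured 152 CPM in that library and 20.7 to 44.5 CPM in the other 9. Its summed erythroid markers stood at 656 CPM against 228 to 454 CPM in the other 9 libraries, and the part of admixed cells in these differences was not tested.

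Of the markers of other cell types 0 passed, and the summed levels of mast cell, neutrophil, stroma and macrophage markers overlapped between the groups. Over 12 mast cell and basophil markers the summed level ran from 1689 to 11655 CPM in HSC KO and from 3804 to 6762 CPM in HSC wt, and HSC KO 1 and HSC KO 2 were the extremes. Of 12 mature neutrophil markers 11 were lower (median -0.85), with summed levels of 157 to 664 CPM in HSC KO and 185 to 1003 CPM in HSC wt. That median was -0.34 without HSC wt 1 and 2. The lactoferrin gene Ltf ran from 3.18 to 77.1 CPM and from 15 to 102 CPM. Col1a2, a collagen gene of mesenchymal stroma, measured 2.92, 4.15, 6.93, 6.09 and 14.2 CPM in HSC KO and 2.50, 2.40, 1.30, 4.71 and 2.41 CPM in HSC wt (log2 difference 1.37, SE 0.46, adjusted p = 0.999, edgeR). HSC KO 1 and 2 overlapped with HSC wt 4. Of the 6 stroma markers tested 5 were higher, with a median of 1.63 that stayed between 0.70 and 2.43 over 24 alternatives. Their summed level, mostly that of the lower member Pdgfrb, ran from 67.3 to 174 CPM in HSC KO and from 121 to 206 CPM in HSC wt. Of 12 macrophage and monocyte markers 11 were higher, with a median of 0.65 that stayed between 0.14 and 0.87. Their summed level ran from 94.9 to 264 CPM in HSC KO and from 119 to 159 CPM in HSC wt. The complement gene C1qa, a macrophage marker, was at 4.66 and 6.03 CPM in HSC KO 1 and 4 and at 0.263 to 1.92 CPM in the other 8 libraries.

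Some genes outside these lists also had a low p or groups apart. Arhgef28, which encodes an exchange factor for the GTPase RHOA, measured 12.2, 8.03, 12, 8.15 and 8.30 CPM in HSC KO and 23.7, 15, 14.9, 15.1 and 17.5 CPM in HSC wt. The groups were apart, with a log2 difference of -0.82 (SE 0.18) and adjusted p = 0.402 in edgeR and 0.0193 in DESeq2 on the 10 libraries. With the level of mast cell markers in the edgeR fit the gene passed (log2 difference -0.91, adjusted p = 0.00915).

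Kcnk5, a potassium channel gene, measured 29.1, 38.0, 38.4, 25.3 and 26.9 CPM in HSC KO and 47.5, 52.1, 39.2, 39.1 and 48.2 CPM in HSC wt (log2 difference -0.52, SE 0.14, adjusted p = 0.999, edgeR). Its groups were apart by under 1 CPM. C4b, a complement gene chosen after its values were seen, measured 1.23 to 2.95 CPM against 2.96 to 6.90 CPM (log2 difference -1.19). Its adjusted p was 0.999 in edgeR, 0.0470 in DESeq2 on the 10 libraries and 0.223 in DESeq2 on all 26, and it was called in 1 of 25 fits. Reads of C4b can be shared with a near-identical copy, so its level is uncertain.

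Itgal, the alpha chain of the integrin LFA-1, measured 243, 212, 257, 243 and 224 CPM in HSC KO and 202, 195, 184, 189 and 183 CPM in HSC wt. All knockout libraries lay above all controls, with a log2 difference of 0.31 (SE 0.08) and adjusted p = 0.999 in edgeR and 0.0158 in DESeq2 on the 10 libraries. Of other genes named by the rule, the G protein gene Gna12 (0.23) was apart and higher. Tead2 (-0.78), a transcription factor of the Hippo pathway, Pdcd1lg2 (-0.52), which encodes PD-L2, and Nicn1 (-0.40) were apart and lower in log2 difference.

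The global Spred1 knockout and its own wild-type group share no library with these groups, so they offer a second measurement of the same gene loss, in mice whose labels mention no poly(I:C) and whose libraries all held Y-linked transcripts. Of the 59 genes apart and higher in HSC KO, 48 (81.4%) had a difference above 0 in the global knockout, against 61% of all genes higher in HSC KO. This share ran from 73.9% to 82.1% with 1 library left out and was 71.9% on upper-quartile factors. These 59 genes are mostly abundant, and the 61% was not matched for level. Of the 28 apart and lower, 20 (71.4%) were below 0, against 54% of all lower genes. With 1 library left out the latter share ran from 53.6% (without HSC KO 3) to 77.9%. Ccnd1 had log2 differences of 0.67 in HSC KO and 1.0 in the global knockout, Mir674 of 2.62 and 4.09, and Meg3 of -1.50 and -0.79. Grap had 0.90 and 0.06, and the stem cell gene Procr -0.74 and 0.01. Between both knockouts the effects of Grap differed by 0.85 and those of Meg3 by -0.71, and neither difference passed (adjusted p = 1.0 for each, edgeR). In the test of that difference over all genes 2 passed (0.0149%).

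**Figure D5:**
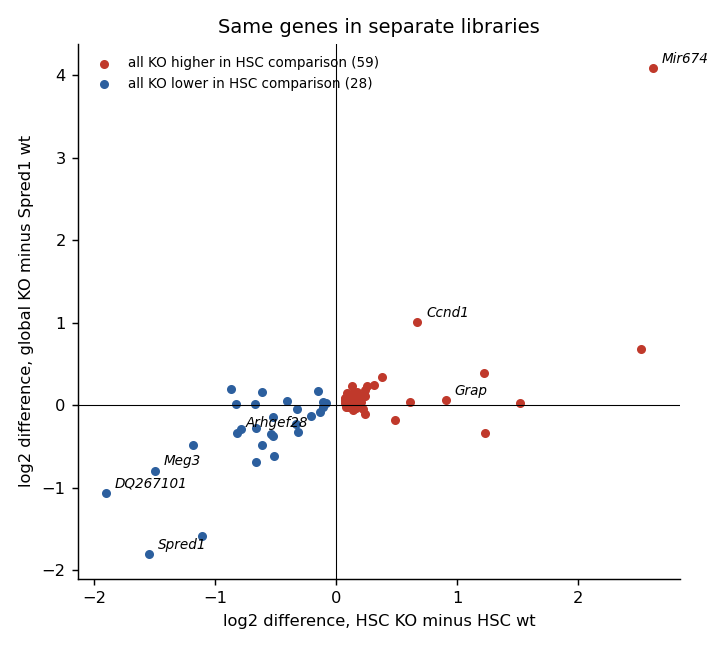
Log2 difference in the global Spred1 knockout against that in HSC KO for the 87 genes whose HSC groups did not overlap (red higher, blue lower in HSC KO). Of the red points 48 of 59 lie above 0 on the vertical axis and 20 of 28 blue points lie below it, with Ccnd1, Mir674, Meg3 and DQ267101 on the same side in both.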

How the data were processed

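Total RNA of LSK cells was sequenced, 1 library per mouse. The authors deposited 1 table of raw read counts per gene with gene coordinates. Per the submitters' processing notes edgeR 3.28.1, HTSeq 0.6.0, STAR 2.6.0 and bcl2fastq 2.18.0.12 were used with build mm10. The strand setting and the annotation are not given in the sources used here, so overlapping and antisense genes cannot be told apart. Columns were matched to samples by the numbers in the sample titles. Libraries within a group are numbered in accession order.

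From the deposited counts, genes were kept by filterByExpr (count minimum 10), scaled by TMM and tested with edgeR 4.0.16 (R 4.3.3) by the quasi-likelihood F-test, two-sided, with robust fitting and group means over all 26 libraries (21 residual degrees of freedom, biological coefficient of variation 0.205). Alternatives used DESeq2 1.42.0, limma 3.58.1 voom, other scalings and filters, sex or mast cell markers as a covariate, 1 sex alone, and left-out libraries. Sex was read as female above 500 CPM of Xist and male above 20 CPM of Y-linked genes. The p-values of the main fit set each difference against the spread between libraries within groups, estimated over all 26 libraries. The scripts were tested on simulated data. Low counts carry counting error only in part, since PCR copies were not marked.

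The genes named were Spred1, those that passed, the 10 of smallest p and the 10 of largest difference with groups apart in each direction (where the higher group averaged 5 CPM or more), up to 4 members of smallest p per list, and a fixed set of pathway genes. Grap, C4b, Mtrr, Fastkd3, Flt3, Tpsab1, Cpa3, Ltf, Rtl1 and Dio3 fall outside it and were picked with their values in view. The members and lists were chosen with earlier results of these data known, and lists were described by counts and medians without a set test. Some genes that the rule took, 1 of the 3 that passed among them, are not reported here, while every fit and count includes them.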

Additional observations from a re-analysis of the deposited data

Results flagged for a closer look

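In 134 groups of 5 libraries, 18 values lay far from the other 4 of their group by Dixon's criterion (gap over range above 0.71). For genes picked without sight of their values, chance alone gives about 1 in 20 groups. Some of the genes checked were picked with their values in view, so that rate is no yardstick for these 18 values. HSC KO 1 supplied 9 of them. In CPM, with the range of the other 4 knockout libraries, they were Mx1 at 14.5 (0.639 to 2.44), Vldlr, a lipoprotein receptor gene, at 72.1 (122 to 142), Pdcd1lg2 at 6.18 (11.4 to 12), Hbb-b2 at 41.0 (5.06 to 9.41), Hbb-bs at 194 (0.111 to 2.63), Cd74 at 152 (20.7 to 44.5), the proliferation gene Mki67 at 1459 (1140 to 1198), Jchain at 825 (25.3 to 118) and the erythroid haem enzyme gene Alas2 at 17.7 (0 to 0.192).

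HSC KO 2 supplied 4: Ly6a at 82.3 (43.5 to 53.5), the cytokine receptor gene Flt3 at 278 (386 to 412), Tpsab1 at 194 (0.0583 to 43.8) and Btnl9 at 5.40 (6.86 to 7.31). The remaining knockout values were Spred2 at 55.2 in HSC KO 4 and Bid at 78.8 in HSC KO 5. In HSC wt they were Dlk1 at 3.97 in library 1, Spred2 at 49.1 in library 2 and Mtrr at 33.0 in library 4.

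For a pair of neighbouring genes on chromosome 13 the differences in both knockout comparisons were unlike, by a test of the difference. The log2 difference of Mtrr was 0.98 higher in HSC KO than in the global knockout (-0.01 against -0.98), and that of Fastkd3 was 1.23 higher (0.12 against -1.11). In HSC KO both genes lay near the control level, so the gap came mainly from the global comparison. Its cause was not tested.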

How the results depend on the processing

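No paired analysis was possible because the labels give the groups no shared replicate numbers. The count of higher genes was 0 in edgeR and limma under every alternative run and 3 in DESeq2 on the 10 libraries. The count of lower genes, 3 in the report, was 5 with a mast cell covariate, 2 with the 10 libraries alone, 2 without HSC KO 1 and HSC wt 1 and 2, 0 in males alone, 1 in females alone, 6 in DESeq2 on the 10 libraries and 5 in DESeq2 on all 26, an alternative chosen after seeing the data. Spred1 missed the threshold in males alone, with fewer libraries, at a log2 difference of -1.33 (adjusted p = 0.119). Leaving out each library in turn gave 56 to 320 genes apart and higher and 37 to 230 apart and lower. The higher count was 32 on upper-quartile factors and 23 on total counts. Without HSC wt 1 and 2 the counts were 189 and 164, and without HSC KO 1 as well 530 and 633; both of these alternatives were chosen after seeing the data. Genes whose effects differ between both knockouts were 2, and 1 in males alone, with 2 to 3 when 1 library was left out. The log2 differences of 46 genes were recomputed under 24 alternatives each (22 for Mir674) and 0 changed sign. Many of these genes were named for a small p or for groups apart, which makes a change of sign unlikely. Spry2, Ccnd3 and Hoxa9, with differences near 0, were not among them. The count is therefore no measure of how stable single genes are. Of 38 list medians, 13 kept their sign and 25 changed it in at least 1 alternative. Genes under 5 CPM are limited by depth: of 203 genes with a difference over 1 on the log2 scale, 177 lay there, and 10 of the 203 had groups apart.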
